A study of Mus musculus with 16 samples.

Results

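The chaperones described here are the proteins that fold other proteins, or keep them from clumping, in the cytosol, the mitochondria and the endoplasmic reticulum (ER). The set is a fixed list of 40 gene symbols, matched by name to the 47069 genes of the deposited count table. All 40 were found and all 40 passed the filter on low counts, which kept 16646 genes. They fall into 22 cytosolic heat shock genes, 3 mitochondrial genes and 15 genes of the ER. Messenger RNA was measured by RNA sequencing of hypothalamus from C57BL/6N mice, an inbred laboratory strain that every group shares. The 8 diets drew 60% or 20% of their energy from fat and, at either fat level, 1%, 2.5%, 5% or 20% from protein, and 2 libraries were made per diet. A diet is written here as its fat and protein percent, so that 60/1 stands for 60% fat together with 1% protein. Each protein level therefore has 4 libraries and each fat level 8. The labels do not say whether animals were pooled or whether libraries of the same diet stem from different animals, so p-values reflect only how far these samples differ among themselves, which may be technical variation.

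Heat shock proteins are made in larger amounts when proteins unfold. The transcription factor HSF1 is released from its chaperone partners, forms trimers and binds heat shock elements, which are inverted repeats of a short GAA unit in the promoters of its targets. The ER has a separate circuit, the unfolded protein response, in which the sensors IRE1, PERK and ATF6 are held inactive by the chaperone BiP. Released ATF6 and the spliced form of XBP1 act on ER stress response elements and raise BiP and the other luminal chaperones. In the hypothalamus, neurons that make and secrete large amounts of peptide hormone depend on this ER machinery.

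The libraries held 17731242 to 18511818 counts each, and the 40 genes together took 0.666% to 0.827% of them. Their share was 0.713%, 0.713%, 0.666% and 0.681% of counts in the 4 libraries at 1% protein and 0.771%, 0.804%, 0.791% and 0.827% in the 4 at 20% protein, in the order 60% fat, then 20% fat, with no overlap between those groups. All 9 hypothalamic markers, among them Pomc, Agrp, Hcrt, Avp and Oxt, were counted in every library, with summed levels of 563 to 914 CPM (counts divided by the TMM-scaled library size, times 1000000). In 3 libraries, both of 60/1 and replicate 1 of 20/1, genes of the mitochondrial genome took 1.54%, 1.61% and 1.78% of counts, against 2.19% to 3.20% in the other 13. Across genes, the Spearman correlation of gene length with the log2 level relative to the 16-library mean was -0.26, -0.17 and -0.26 there, the lowest of the 16. Replicate 2 of 20/1 and replicate 2 of 20/2.5 carried markers of cortical and hippocampal neurons, all 7 of them above 0 in every library. Their mean stood 1.01 and 1.96 above the 16-library mean on the log2 scale there, against -0.54 to 0.09 elsewhere. Replicate 2 of 20/1 also had the highest sum of choroid plexus markers, 249 CPM, and the lowest sums of hypothalamic markers, 563 CPM, and of microglia markers, 179 CPM. Diet codes in the titles start alike for the 1% and 2.5% protein diets and for the 5% and 20% diets, so a contrast across that line cannot be told apart from whatever else the codes mark.

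RefSeq promoter windows of the GRCm38.p6 build were at hand for 32 of the 40 genes, with 40 windows because 7 genes have more than 1 start site, and 5 are shown as examples from cytosolic and ER genes that fell at 1% protein and hold an element named above. Each is printed in the direction of transcription from 250 bases before the start site, which is counted as 0, and capitals mark matched elements. The heat shock element was searched on both strands as 2 units, GAANNTTC or TTCNNGAA, and as 3 alternating units of GAA and TTC with 2 free bases between them, which contain the 2-unit form. The ER stress response element was searched on both strands as CCAAT, 9 free bases and CCACG. Promoters of Hsph1 (chr5:149636337-149636586, minus strand), Chordc1 (chr9:18292017-18292285, plus strand), Hspa5 (chr2:34771840-34772089, plus strand), Hsp90b1 (chr10:86705445-86705694, minus strand) and Creld2 (chr15:88819396-88819645, plus strand) read as follows.
Hsph1: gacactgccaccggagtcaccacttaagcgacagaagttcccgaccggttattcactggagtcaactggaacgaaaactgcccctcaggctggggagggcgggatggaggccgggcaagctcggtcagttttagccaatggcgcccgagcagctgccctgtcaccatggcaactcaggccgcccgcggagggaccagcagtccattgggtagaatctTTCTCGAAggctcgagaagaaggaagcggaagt
Chordc1: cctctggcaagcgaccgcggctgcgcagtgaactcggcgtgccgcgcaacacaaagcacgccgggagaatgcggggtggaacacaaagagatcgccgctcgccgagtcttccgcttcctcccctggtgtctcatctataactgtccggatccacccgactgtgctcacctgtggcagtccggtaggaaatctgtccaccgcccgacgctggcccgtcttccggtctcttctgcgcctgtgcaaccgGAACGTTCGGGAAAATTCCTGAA
Hspa5: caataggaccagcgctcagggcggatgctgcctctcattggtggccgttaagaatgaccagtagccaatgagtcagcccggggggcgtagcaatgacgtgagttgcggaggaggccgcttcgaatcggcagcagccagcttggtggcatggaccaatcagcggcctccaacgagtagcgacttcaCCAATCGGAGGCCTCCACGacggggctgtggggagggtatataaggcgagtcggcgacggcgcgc
Hsp90b1: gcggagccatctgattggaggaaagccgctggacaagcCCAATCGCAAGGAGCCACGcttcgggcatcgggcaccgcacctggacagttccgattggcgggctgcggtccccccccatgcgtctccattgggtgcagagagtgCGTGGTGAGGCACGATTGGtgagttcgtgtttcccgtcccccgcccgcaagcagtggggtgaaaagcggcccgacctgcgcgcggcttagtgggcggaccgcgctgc
Creld2: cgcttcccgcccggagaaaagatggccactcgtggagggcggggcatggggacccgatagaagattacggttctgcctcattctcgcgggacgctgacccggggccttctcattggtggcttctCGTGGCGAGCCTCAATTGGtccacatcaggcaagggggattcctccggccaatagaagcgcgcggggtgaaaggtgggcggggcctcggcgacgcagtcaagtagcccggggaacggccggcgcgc

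In Hsph1, shown for the first of its RefSeq start sites, the capitals at -33 to -26 are a 2-unit heat shock element, and a 3-unit element, TTCTGGAAAGTTC (chr5:149636288-149636300), lies just inside the transcript at 36 to 48. The run of capitals across the start site of Chordc1, from -4 to 18, holds 3 overlapping 3-unit elements. Hspd1 and Hspe1, which are transcribed away from each other, share the run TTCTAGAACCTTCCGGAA (chr1:55088059-55088076), with 2 overlapping 3-unit elements. A 3-unit element was in 5 of the 40 chaperone windows, those of these 4 genes with Hsph1 at both of its start sites, and in 0.603% of 32851 RefSeq windows. A 2-unit element was in 13 of the 40 chaperone windows and 15.1% of all windows, and those 13 belong to 10 cytosolic and 2 mitochondrial genes and none of the ER. The ER stress response element was in 6 of the 13 ER windows (Calr, Canx, Creld2, Hsp90b1, Hspa5 and Pdia6), in no other chaperone window and in 0.119% of all windows. Hspa5, which encodes BiP, has it at -65 to -47, Creld2 at -126 to -108, and Hsp90b1 has 2 copies, at -212 to -194 and -107 to -89. Its second form, ATTGG, 1 free base and CCACG on either strand, was in Dnajb11 and in 0.0365% of windows, while TGACGTGG or CCACGTCA was in no chaperone window and in 0.676% of all. A match describes the letters and shows no binding. Of the 6 ER genes with the ER stress response element, Creld2, Hsp90b1 and Hspa5 fell between 1% and 20% protein, and Calr, Canx and Pdia6 did not pass. Pdia3, Pdia4 and Serpinh1 fell without a match. Of the genes with a 3-unit heat shock element, Hsph1, Chordc1 and Hspd1 fell and Hspe1 did not pass. A link between elements and changes was not tested.

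Many chaperone messages fell at the lowest protein level. Between 1% and 20% protein, averaged over the fat levels, 14 of the 40 genes fell, 1 rose and 25 did not pass, while 6.01% of all genes tested fell and 8.26% rose (edgeR's quasi-likelihood test, Benjamini-Hochberg adjusted p under 0.05). The 14 are 7 cytosolic genes (Hspa1b, Hspb1, Chordc1, Cryab, Hsph1, Hsp90aa1 and Hspa4), the mitochondrial Hspd1 and 6 ER genes (Serpinh1, Hsp90b1, Creld2, Pdia4, Hspa5 and Pdia3). Hspb6 rose. The log2 change was negative for 35 of the 40, or 87.5%, against 49.3% of all genes tested, and its median was -0.19, against 0.0035. All 4 libraries at 1% protein lay below all 4 at 20% protein for 12 of the genes and above them for 1, Hspa9, against 6.35% and 7.4% of all genes. In bulk tissue, fewer cells of a type and less RNA per cell cannot be told apart.

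Markers of the hypothalamus and of other regions and cells moved in the same contrast. Of 9 hypothalamic markers, Pomc (log2 change -1.91, edgeR adjusted p = 2.67e-05), Avp (-0.58) and Sim1 (-0.67) fell. Agrp rose (0.59) and 5 did not pass, with sums of 563 to 909 CPM at 1% protein and 784 to 913 CPM at 20%. Of 6 thalamus markers, Prkcd and Ramp3 rose and 4 did not pass, and their summed level was 502 to 671 CPM at 1% protein and 357 to 473 CPM at 20%, with none at 0. Of 6 mural cell markers, Acta2, Myh11 and Rgs5 fell and Kcnj8 rose, with sums of 82.6 to 93.4 CPM against 109.9 to 115.5 CPM and none at 0. The choroid plexus gene Ttr rose (log2 change 3.26, edgeR adjusted p = 0.0297), and the 5 markers of that tissue, 1 of them at 0, summed to 44.4 to 249 CPM at 1% protein and 41.8 to 52.5 CPM at 20%. The part of these cells in the chaperone values was not tested.

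The count of 14 was smaller without some libraries. It was 8 without replicate 1 or replicate 2 of 60/1 (3.53% and 2.99% of all genes fell), 6 without replicate 1 of 20/1 (2.94%), and 9 and 6 without replicate 1 and replicate 2 of 20/20 (5.34% and 2.86%). Without all 3 libraries of low mitochondrial share it was 5, which leaves a lone library at 1% protein that is assumed to vary like the others. Those 5 were Hsph1, Serpinh1, Cryab, Hspa12b and Hyou1, against 1.47% of all genes that fell in that fit. The lone library at 1% protein in that fit is replicate 2 of 20/1, which carries cortex markers. In it Hyou1 stood at 173 CPM, against 225 to 238 CPM in the other libraries at 1% protein. Without the 2 libraries with cortex markers 18 fell and 2 rose, against 17.3% of all genes that fell.

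**Figure D1:**
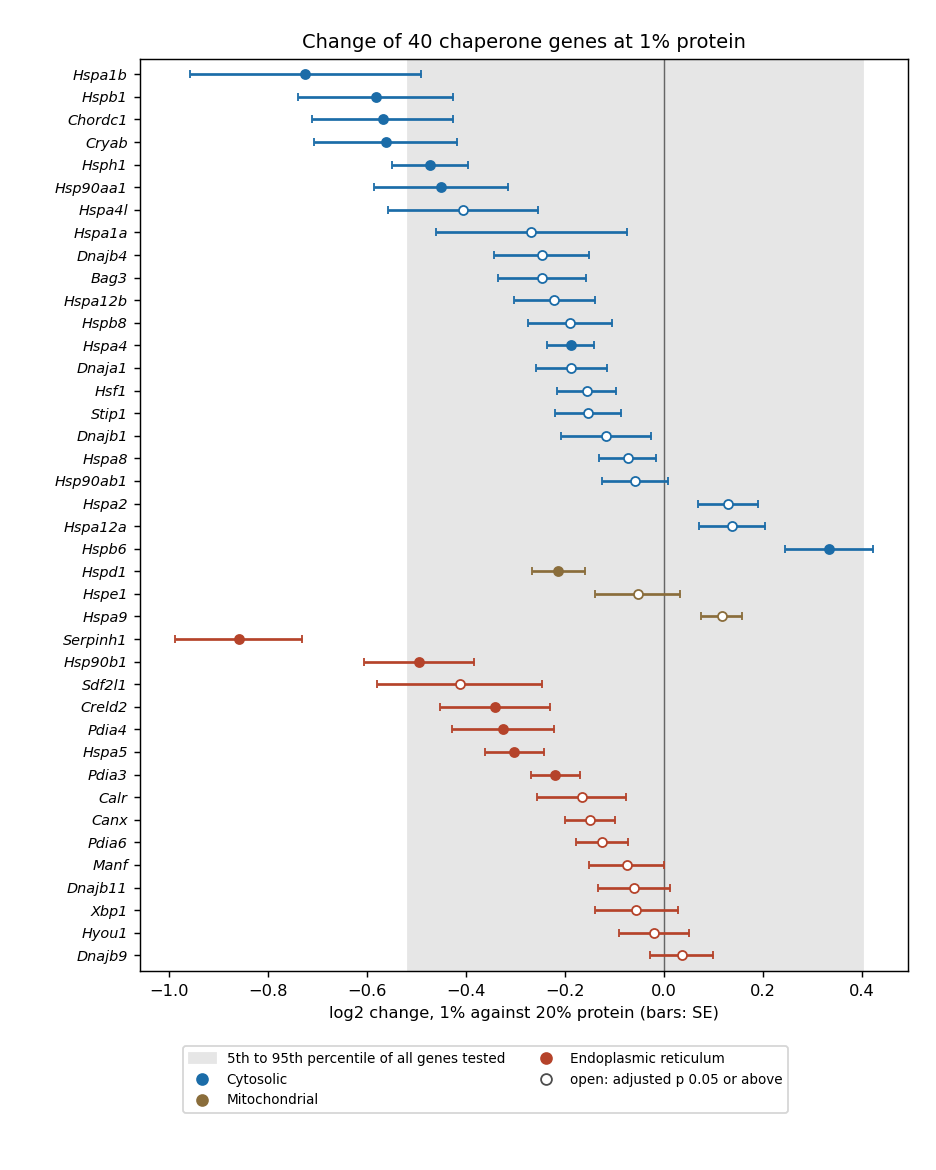
Log2 change of each of the 40 chaperone genes between 1% and 20% protein (x axis, log2 scale), grouped by compartment, with bars of 1 standard error from edgeR. Filled points passed an adjusted p of 0.05, the grey band spans the 5th to 95th percentile of all genes tested, and Serpinh1 at -0.86 is the lowest of the 40.

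Hsph1 encodes HSP110, which exchanges the nucleotide on HSP70 and helps to dissolve aggregates (ENSMUSG00000029657, chromosome 5, 149614287 to 149636376, GENCODE M21). Hsph1 gave 271 and 263 CPM on 60% fat and 217 and 244 on 20% fat at 1% protein, against 317 and 354 and 332 and 375 CPM at 20% protein. No library at 1% protein reached the lowest at 20% protein, and the lowest of all 16 was replicate 1 of 20/1. The means were 248 ± 23.9 CPM (SD, n = 4) and 344 ± 25.4 CPM (SD, n = 4), and Hsph1 fell (log2 change -0.47, SE 0.08, 1.39-fold, edgeR adjusted p = 0.00118). It passed in all 23 alternative fits that give this contrast, as did Serpinh1 and no other chaperone gene. Hspa4, a second member of the HSP110 family, fell less (log2 change -0.19, SE 0.05, 1.14-fold, edgeR adjusted p = 0.0182). On 60% fat the Hspa4 libraries held 252 and 238 CPM at 1% protein and 281 and 277 at 20%, and on 20% fat 234 and 259.7 against 278 and 285 CPM. Those groups did not overlap either, and its call was lost without replicate 2 of 60/1 (edgeR adjusted p = 0.0563), replicate 1 of 20/1 (0.0593) or replicate 2 of 20/20 (0.0529). Hspa4l, the third of the family, did not pass (log2 change -0.41, SE 0.15, 1.33-fold, edgeR adjusted p = 0.0794), with 110.4, 133 and 130.4 CPM in the 3 libraries of low mitochondrial share and 215 CPM in the remaining library at 1% protein.

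HSP90 holds kinases and steroid receptors in a form that can be activated, and the cytosol has an inducible and a constitutive form. Levels of Hsp90aa1 at 1% protein were 182 and 193 CPM on 60% fat and 215 and 314 on 20% fat, and those at 20% protein were 329, 279.9, 308 and 313 CPM in the same order. The 3 libraries of low mitochondrial share were the lowest of the 16 for this gene, the inducible form, while replicate 2 of 20/1 lay within the range at 20% protein. Hsp90aa1 fell over all 16 libraries (log2 change -0.45, SE 0.14, 1.37-fold, edgeR adjusted p = 0.0374), and without those 3 its change was 0.04 (edgeR adjusted p = 0.944). Its call was also lost without any single library at 1% or 20% protein other than replicate 2 of 20/1, at edgeR adjusted p from 0.0513 to 0.121 over those 7. Hsp90ab1, the constitutive form, did not pass (log2 change -0.06, SE 0.07, 1.04-fold, edgeR adjusted p = 0.572). The 20% protein libraries held 1835 and 2016 CPM of Hsp90ab1 on 60% fat and 1901 and 2024 on 20% fat, and the 1% libraries 2040.3 and 2051 and 1795 and 1605 CPM. At 1% protein both libraries on 60% fat were above every library at 20% protein and both on 20% fat were below, so the groups overlapped.

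Chordc1 encodes a zinc-binding partner of HSP90 and is a known target of HSF1. At 1% protein Chordc1 stood at 39.8 and 45.6 CPM on 60% fat and 35.4 and 65.9 on 20% fat, and at 20% protein at 66.1 and 67.0 and at 66.8 and 77.2 CPM. Even the highest library at 1% protein, replicate 2 of 20% fat, stayed just under the lowest at 20% protein, and the other 3 were far below it. Chordc1 fell (log2 change -0.57, SE 0.14, 1.48-fold, edgeR adjusted p = 0.0175), and without the 3 libraries of low mitochondrial share its change was -0.05 (edgeR adjusted p = 0.903). The call was lost without either 60/1 library (0.0586 and 0.0513), replicate 1 of 20/1 (0.0583) or replicate 2 of 20/20 (0.0623), as edgeR adjusted p. Stip1, the adaptor that links HSP70 to HSP90, did not pass (log2 change -0.15, SE 0.07, 1.11-fold, edgeR adjusted p = 0.124).

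Hspa1a and Hspa1b, neighbours on chromosome 17, encode the stress-inducible HSP70. Of the 100-base stretches of their transcripts, 47.1% of those of Hspa1a also occur in Hspa1b and 49.9% of those of Hspa1b in Hspa1a, and their promoter windows differ at 4 of 300 bases, so reads could be split between them and both counts are uncertain. Hspa1b gave 3.10 and 4.50 CPM on 60% fat and 3.81 and 3.26 on 20% fat at 1% protein, against 3.98 and 7.5 and 5.78 and 6.99 CPM at 20% protein. The groups overlapped through replicate 1 of 60/20. Hspa1b fell (log2 change -0.72, SE 0.23, 1.65-fold, edgeR adjusted p = 0.0475), but lost its call in 10 of the 16 fits that left out a library, at edgeR adjusted p from 0.0508 to 0.136. Those 10 left out either library of 60/1, 60/5 or 20/20, replicate 1 of 60/2.5 or 20/1, or replicate 2 of 60/20 or 20/5. Hspa1a, the less abundant in counts, did not pass (log2 change -0.27, SE 0.19, 1.2-fold, edgeR adjusted p = 0.352). On 60% fat the Hspa1a libraries held 1.74 and 1.58 CPM at 1% protein and 1.56 and 2.17 at 20%, and on 20% fat 1.33 and 1.36 against 1.62 and 1.87 CPM. Its values overlapped between the groups.

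The other HSP70 genes gave smaller values. Hspa8, the constitutive HSP70, had a change of -0.07, Hspa12a, an atypical relative abundant in brain, 0.14, and Hspa2, known best from the testis, 0.13, at edgeR adjusted p of 0.391, 0.168 and 0.154. Hspa12b, a relative known from endothelial cells, had a change of -0.22 and did not pass (edgeR adjusted p = 0.0757), although all 4 libraries at 1% protein were below those at 20%. All 6 endothelial markers fell in this contrast (Cldn5, Pecam1, Flt1, Tek, Cdh5 and Slco1a4, median -0.45), with summed levels of 135.9 to 155.4 CPM at 1% protein and 178 to 213 CPM at 20%. None of them was at 0, and their part in the value of Hspa12b was not tested.

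The small heat shock proteins bind unfolding clients without ATP, and they split in direction. Cryab encodes alpha-B crystallin, abundant in oligodendrocytes and astrocytes (chromosome 9, 50751325 to 50756636, overlapping Hspb2). Levels of Cryab at 1% protein were 148 and 173 CPM on 60% fat and 98.4 and 80.1 on 20% fat, and those at 20% protein were 175, 178, 183 and 179 CPM in the same order. The 4 libraries at 20% protein were close together, both libraries on 20/1 were the lowest of all 16, and those on 60% fat were also below the 20% protein range. Cryab fell over both fat levels (log2 change -0.56, SE 0.14, 1.48-fold, edgeR adjusted p = 0.0193) and fell by more, -1.1, without the 3 libraries of low mitochondrial share (edgeR adjusted p = 0.0019). That value rests on a lone library at 1% protein, replicate 2 of 20/1, which is also one of the libraries with cortex markers. The call was lost without replicate 1 of 20/1 (0.0699) or replicate 2 of 20/20 (0.0610), as edgeR adjusted p. The oligodendrocyte marker Ermn fell in this contrast (-0.69, edgeR adjusted p = 0.00342), and of 5 tested astrocyte markers Aqp4 fell while Aldh1l1 and Slc1a3 rose. The astrocyte markers summed to 1839.5 to 2035 CPM at 1% protein and 1929 to 2175 CPM at 20%, with Gfap at 0 in every library. The microglia, neuron and choroid plexus lists each held 1 marker at 0 as well. Whether the counting or the tissue gives these was not tested. The part of oligodendrocytes and astrocytes in the change of Cryab was not tested either.

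Hspb1, or HSP25 in the mouse, fell too (log2 change -0.58, SE 0.16, 1.5-fold, edgeR adjusted p = 0.0231). The 20% protein libraries held 5.54 and 6.36 CPM of Hspb1 on 60% fat and 6.87 and 6.62 on 20% fat, and the 1% libraries 4.84 and 5.01 and 3.43 and 3.85 CPM. The groups did not overlap, and replicate 1 of 20/1 was again the lowest of the 16. Without that library, or without replicate 1 or 2 of 20/20, it did not pass (edgeR adjusted p = 0.0775, 0.0535 and 0.0726). Hspb6, or HSP20, was the only chaperone gene that rose (log2 change 0.33, SE 0.09, 1.26-fold, edgeR adjusted p = 0.0235). At 1% protein Hspb6 stood at 17.4 and 16.2 CPM on 60% fat and 15.8 and 13.5 on 20% fat, and at 20% protein at 13.3 and 14.2 and at 11.1 and 11.3 CPM. The groups overlapped, and the highest values were those of the 3 libraries of low mitochondrial share, and without them the change was 0.16 (edgeR adjusted p = 0.657). Its span overlaps those of Proser3 and Lin37, so its counts are uncertain. The call was lost in 6 of the 16 fits without a library, at edgeR adjusted p from 0.0566 to 0.0884: those without either library of 60/1 or 20/20, replicate 1 of 60/20 or replicate 1 of 20/1. Hspb8, which works with BAG3 in selective autophagy, did not pass (log2 change -0.19, SE 0.08, 1.14-fold, edgeR adjusted p = 0.133).

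Hsf1, the master regulator of the cytosolic response, did not pass at the level of its own message (log2 change -0.16, SE 0.06, 1.11-fold, edgeR adjusted p = 0.0856). Hsf1 gave 59.7 and 65.0 CPM on 60% fat and 57.4 and 54.5 on 20% fat at 1% protein, against 62.5 and 65.7 and 71.2 and 64.1 CPM at 20% protein. The groups overlapped, and replicate 2 of 20/1 was the lowest of the 16. Its partner genes among the members, the HSP70 cofactors Dnaja1, Dnajb1, Dnajb4 and Bag3, had changes of -0.19, -0.12, -0.25 and -0.25, and none passed (edgeR adjusted p from 0.0694 to 0.391).

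Of the mitochondrial pair that forms the folding cage, Hspd1 (HSP60) fell and its lid Hspe1 (HSP10) did not pass. On 60% fat the Hspd1 libraries held 68.5 and 72.8 CPM at 1% protein and 84.7 and 86.4 at 20%, and on 20% fat 73.3 and 75.6 against 84.4 and 81.1 CPM. The groups did not overlap, but the gap between them was small (log2 change -0.21, SE 0.05, 1.16-fold, edgeR adjusted p = 0.0166). Without replicate 1 of 60/1 the edgeR adjusted p was 0.0557, and without the 3 libraries of low mitochondrial share 0.461. Levels of Hspe1 at 1% protein were 44.3 and 37.1 CPM on 60% fat and 45.3 and 40.4 on 20% fat, and those at 20% protein were 40.4, 49.5, 44.1 and 39.7 CPM in the same order. These overlapped fully (log2 change -0.05, SE 0.09, 1.04-fold, edgeR adjusted p = 0.697), and the sign changed to 0.0037 without replicate 2 of 60/1 and to 0.0029 without replicate 2 of 60/20. Hspd1 and Hspe1 overlap head to head on chromosome 1, so reads at their junction cannot be assigned without strand. Hspa9, the mitochondrial HSP70, was the gene whose 4 libraries at 1% protein all stood above the 4 at 20%. The 20% protein libraries held 219 and 218 CPM of Hspa9 on 60% fat and 220.2 and 217 on 20% fat, and the 1% libraries 231 and 231 and 246 and 239.7 CPM. Its change did not pass (log2 change 0.12, SE 0.04, 1.08-fold, edgeR adjusted p = 0.0706).

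In the ER, Hspa5 encodes BiP, the HSP70 that binds nascent chains and holds the stress sensors (ENSMUSG00000026864, chromosome 2, 34771970 to 34777547). At 1% protein Hspa5 stood at 369.5 and 356 CPM on 60% fat and 339.5 and 341 on 20% fat, and at 20% protein at 420.1 and 443 and at 432 and 438 CPM. The groups did not overlap, and the 4 libraries at 1% protein were closer to one another than to any at 20%. The means were 352 ± 14.1 CPM (SD, n = 4) and 433 ± 9.88 CPM (SD, n = 4), and Hspa5 fell (log2 change -0.30, SE 0.06, 1.23-fold, edgeR adjusted p = 0.00473). The change was as large without the 3 libraries of low mitochondrial share, -0.31, where the edgeR adjusted p was 0.139 with a lone library at 1% protein. Hsp90b1 encodes GRP94, the ER form of HSP90. Hsp90b1 gave 101 and 99.99 CPM on 60% fat and 109 and 148 on 20% fat at 1% protein, against 173 and 151 and 154 and 168 CPM at 20% protein. The 3 libraries of low mitochondrial share were the lowest of all 16, and replicate 2 of 20/1 was just below the 20% protein range. Hsp90b1 fell (log2 change -0.50, SE 0.11, 1.41-fold, edgeR adjusted p = 0.00972), and without those 3 libraries its change was -0.12 (edgeR adjusted p = 0.748).

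The protein disulfide isomerases and lectins fold secreted glycoproteins. Pdia3, the isomerase that works with calreticulin and calnexin, fell (log2 change -0.22, SE 0.05, 1.16-fold, edgeR adjusted p = 0.0105). On 60% fat the Pdia3 libraries held 229.7 and 223 CPM at 1% protein and 254 and 255 at 20%, and on 20% fat 215 and 221 against 256 and 269 CPM. No values overlapped, and the spread within each group was small. Without the 3 libraries of low mitochondrial share its change was -0.21 (edgeR adjusted p = 0.230). Pdia4, another isomerase, fell with an adjusted p near the threshold (log2 change -0.33, SE 0.10, 1.25-fold, edgeR adjusted p = 0.0448). Levels of Pdia4 at 1% protein were 51.8 and 50.5 CPM on 60% fat and 40.1 and 38.5 on 20% fat, and those at 20% protein were 51.4, 58.9, 53.3 and 61.7 CPM in the same order. Only the libraries on 20% fat were clearly lower, and those on 60% fat lay at the bottom of the 20% protein range. It lost its call in 8 of the 16 fits without a library (edgeR adjusted p from 0.0504 to 0.147), which were those without either library of 60/1 or 20/20, replicate 1 of 60/2.5 or 20/1, or replicate 2 of 60/5 or 60/20. Pdia6 had a change of -0.13, Calr, which encodes calreticulin, -0.17, and Canx, which encodes calnexin, -0.15, at edgeR adjusted p of 0.115, 0.211 and 0.0581.

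Creld2, an ER protein with isomerase activity that is induced by ATF6, fell at the edge of the threshold (log2 change -0.34, SE 0.11, 1.27-fold, edgeR adjusted p = 0.0492). The 20% protein libraries held 22.6 and 28.3 CPM of Creld2 on 60% fat and 26.8 and 26.2 on 20% fat, and the 1% libraries 22.5 and 23.6 and 19.1 and 17.2 CPM. The groups overlapped through replicate 1 of 60/20. It kept its call in only 4 of the 16 fits without a library, those without replicate 1 of 60/5 or 60/20, replicate 2 of 20/2.5 or replicate 1 of 20/5, and had an edgeR adjusted p from 0.0532 to 0.125 in the other 12.

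Serpinh1 encodes HSP47, the chaperone of collagen in the ER, and had the largest change of the 40 (ENSMUSG00000070436, chromosome 7, 99345376 to 99353239). At 1% protein Serpinh1 stood at 18.9 and 19.5 CPM on 60% fat and 12.7 and 14.1 on 20% fat, and at 20% protein at 25.3 and 34.3 and at 29.4 and 28.4 CPM. Every library at 1% protein was below every library at 20% and 5% protein, and those on 20% fat were the lowest of the 16. The means were 16.3 ± 3.39 CPM (SD, n = 4), 20.7 ± 2.34 CPM (SD, n = 4), 24.4 ± 3.77 CPM (SD, n = 4) and 29.3 ± 3.75 CPM (SD, n = 4) at 1%, 2.5%, 5% and 20% protein. Serpinh1 fell between 1% and 20% (log2 change -0.86, SE 0.13, 1.81-fold, edgeR adjusted p = 0.000646). Without the 3 libraries of low mitochondrial share its change was -1.03. That value rests on a lone library at 1% protein, replicate 2 of 20/1, which carries cortex markers. All 6 markers of meningeal fibroblasts, the collagen-making cells around the brain, fell in the same contrast (median -1.01), Col1a1 by -1.17 and Col3a1 by -1.44 on the log2 scale. None of the 6 was at 0, their summed level was 42.5 to 64.7 CPM at 1% protein and 85.5 to 98.3 CPM at 20%, and their part in the change of Serpinh1 was not tested.

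The remaining ER genes did not pass. Xbp1, the transcription factor of the IRE1 arm, had a change of -0.06 (edgeR adjusted p = 0.672). Xbp1 gave 143 and 135 CPM on 60% fat and 120.2 and 105 on 20% fat at 1% protein, against 116 and 142 and 139 and 124 CPM at 20% protein. Its values overlapped, with both libraries of 60/1 in the upper part of the range and the lowest of the 16 in replicate 2 of 20/1. A gene count does not show the splicing that activates Xbp1. Sdf2l1, an ER protein that holds BiP clients in solution, had a change of -0.41 (edgeR adjusted p = 0.1). The BiP cofactors Dnajb9 and Dnajb11 and the BiP nucleotide exchange factor Hyou1 had changes of 0.03, -0.06 and -0.02, and the secreted factor Manf -0.08 (edgeR adjusted p from 0.515 to 0.872).

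**Figure D2:**
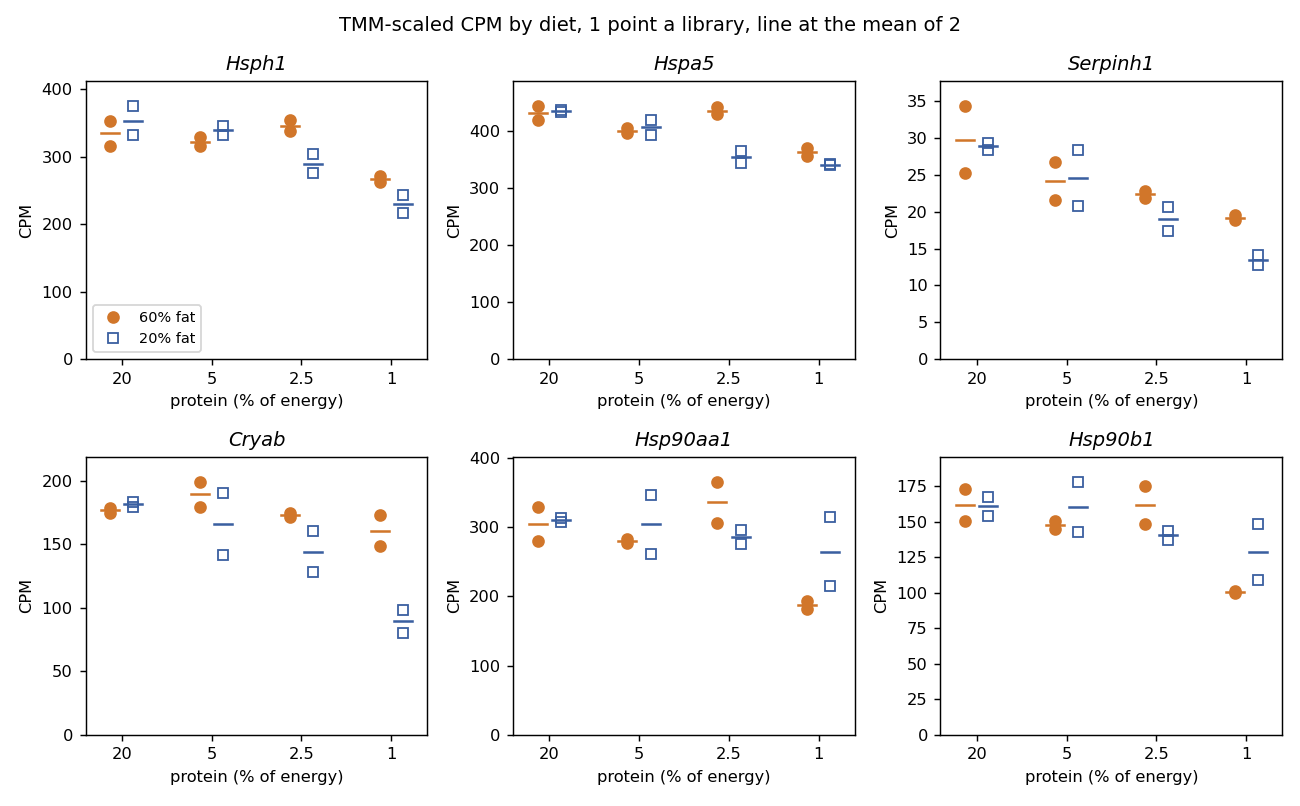
TMM-scaled CPM (y axis, linear from 0) of 6 chaperone genes at each protein level (x axis, % of energy), with 1 point per library, filled for 60% fat and open for 20% fat, and a line at the mean of the 2 libraries. Hsph1, Hspa5 and Serpinh1 are lowest at 1% protein on both fat levels, Cryab on 20% fat (98.4 and 80.1 CPM), and Hsp90aa1 and Hsp90b1 in 3 of the 4 libraries at 1% protein.

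The lower steps in protein asked where along the range the difference lay. Against 5% protein, 4 chaperone genes fell at 1% and 1 rose, beside 2.41% and 2.46% of all genes. Hsph1 (log2 change -0.42, edgeR adjusted p = 0.00678), Serpinh1 (log2 change -0.59, edgeR adjusted p = 0.016), Hsp90b1 (log2 change -0.43, edgeR adjusted p = 0.0364) and Cryab (log2 change -0.54, edgeR adjusted p = 0.0417) fell, and Hspa2 rose (log2 change 0.25, edgeR adjusted p = 0.0279). The count of 4 was 2 without replicate 1 of 60/1, 60/2.5 or 60/5 or without replicate 2 of 60/5 or 20/5, 1 without replicate 1 of 20/1, and 13 without replicate 2 of 20/1. The shares of all genes in these fits are not given here, so the counts have no background beside them. Between 1% and 20% protein, the share of all genes that fell was 16.5% without replicate 2 of 20/1, against 6.01% with all libraries. No chaperone gene rose without either 60/1 library, replicate 1 of 60/5 or either 20/5 library, and 2 genes rose without replicate 2 of 20/1 or replicate 1 of 20/2.5.

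Between 1% and 2.5% protein, diets whose codes start alike, Hsph1 fell (log2 change -0.35, edgeR adjusted p = 0.0235) and Hspa2 rose (log2 change 0.25, edgeR adjusted p = 0.0369), beside 0.931% and 1.39% of all genes. At 2.5% protein Hsph1 stood at 354 and 338 CPM on 60% fat and 276 and 304 on 20% fat, so that all 4 were above the 4 at 1% protein. On 60% fat the Hspa2 libraries held 49.0 and 48.7 CPM at 1% protein and 38.8 and 37.7 at 2.5%, and on 20% fat 39.1 and 42.4 against 37.5 and 36.2 CPM. The libraries on 60/1 were the highest of the 16 for Hspa2. Without replicate 2 of 60/1, either 60/2.5 library or replicate 1 of 20/1 no chaperone gene fell, while 10 fell without replicate 2 of 20/1, 3 without replicate 1 of 20/2.5 and 2 without replicate 2 of 20/2.5. No chaperone gene rose in 12 of the 16 fits without a library, the exceptions being those without replicate 1 of 60/20, replicate 1 or 2 of 20/1 or replicate 2 of 20/20. These counts, too, stand without the shares of all genes in the same fits.

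No chaperone gene passed between 2.5% and 20% protein or between 5% and 20% protein with edgeR's quasi-likelihood test or with DESeq2, where edgeR called 0.00601% of all 16646 genes lower and 0% higher at 2.5% protein, and 0.012% lower and 0.018% higher at 5%. At an unadjusted p under 0.05, 7 were lower at 2.5% protein and 3 at 5%, and none was higher, against 2.85% and 1.39% of all genes lower and 1.96% and 1.62% higher. Serpinh1 was among both, with changes of -0.51 and -0.27 on the log2 scale. The linear slope over protein, which is the model in the series' design text, also called none with edgeR and 2 with DESeq2, where edgeR called 0.00601% of all genes lower and 0.012% higher toward 1% protein. Its unadjusted p was under 0.05 for 20 of the 40, 19 lower toward 1% protein and 1 higher, against 6.42% and 8.21% of all genes. Serpinh1 had the steepest slope of those 20 after Hspa1b, at -0.66 and -0.69 from 20% to 1% protein (edgeR adjusted p = 0.14 and 0.189).

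The diets also asked whether fat level mattered. Averaged over protein, no chaperone gene passed between 60% and 20% fat with edgeR or with DESeq2, while edgeR called 0.00601% of all genes lower and 0% higher on 60% fat. At an unadjusted p under 0.05, 8 were higher on 60% fat and none lower, against 3.59% and 4.20% of all genes. They were Cryab (log2 difference 0.31), Hspb1 (0.25), Xbp1 (0.16), Hspb6, Manf, Stip1, Hspa2 and Hspa8. Both libraries with cortex markers are on 20% fat. One of them, replicate 2 of 20/1, was the lowest of the 16 for Cryab, Xbp1, Manf, Stip1 and Hspa8, but not for Hspb1, Hspb6 or Hspa2. The part of these libraries in the differences was not tested.

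The change between 1% and 20% protein was then taken within each fat level. On 60% fat 6 fell and none rose, beside 2.28% and 1.97% of all genes: Hsp90aa1 (log2 change -0.70), Hsp90b1 (-0.68), Serpinh1 (-0.63), Hsph1 (-0.33), Hspd1 (-0.28) and Hspa5 (-0.25). On 20% fat 9 fell and none rose, beside 1.18% and 0.601% of all genes: Serpinh1 (log2 change -1.11), Cryab (-1.02), Hspb1 (-0.89), Sdf2l1 (-0.81), Hsph1 (-0.62), Pdia4 (-0.55), Creld2 (-0.55), Hspa5 (-0.35) and Pdia3 (-0.27). Hsph1, Hspa5 and Serpinh1 passed at both levels, and the edgeR adjusted p ranged from 0.0236 to 0.0493 over the 6 and from 0.00278 to 0.0403 over the 9. These contrasts rest on 2 libraries against 2, with the spread shared over all diets. The count on 60% fat was 0 without any single library of 60/1 or 60/20, 2 without either 60/2.5 library, 1 without either 60/5 library, 3 without either 20/20 library and 12 without either 20/1 library. The count on 20% fat was 3 without either 20/20 library and 5 without either 60/2.5 library. The shares of all genes in these fits are not given here, so the counts have no background beside them.

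**Figure D3:**
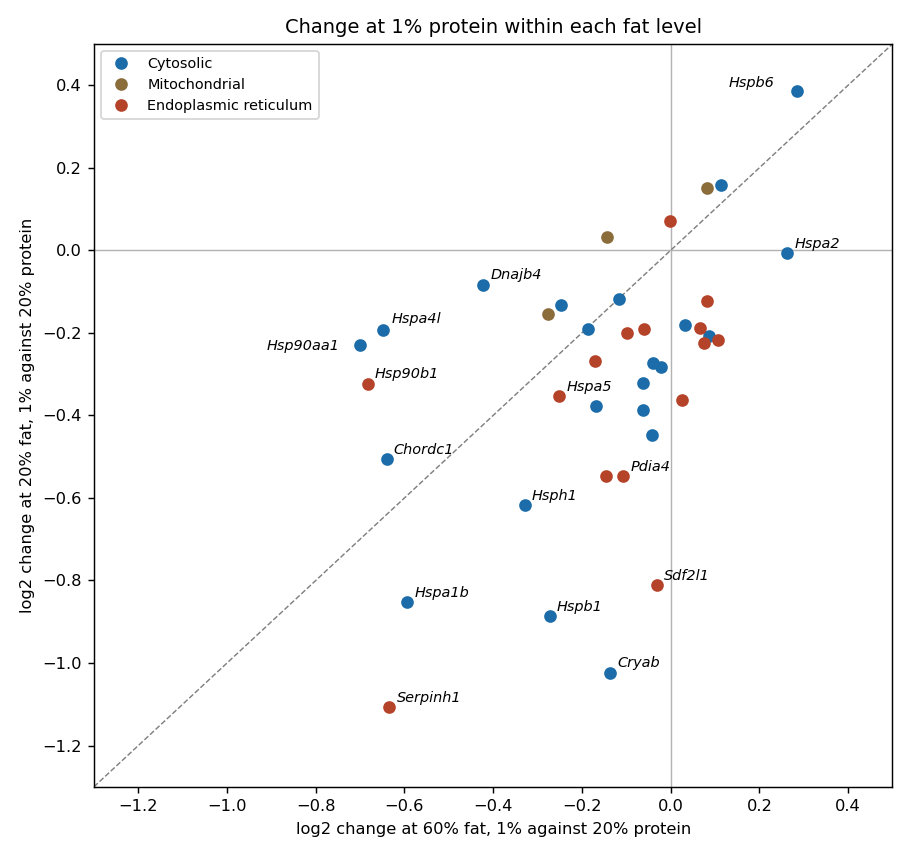
Log2 change between 1% and 20% protein on 60% fat (x axis) against that on 20% fat (y axis), 1 point per chaperone gene, coloured by compartment, with a dashed line where the changes are equal. Cryab and Sdf2l1 lie far below the line and Hsp90aa1, Hsp90b1 and Hspa4l above it.

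The difference between those changes was tested directly, and no gene of the table passed with edgeR (0%). DESeq2 called no chaperone gene either. At an unadjusted p under 0.05, 14 of the 40 had the more positive change on 60% fat and none the more negative, against 2.66% and 5.18% of all genes. The largest of these were Cryab (difference 0.89, unadjusted p = 0.000492), Sdf2l1 (0.78, 0.00698) and Hspb1 (0.61, 0.0413), each at an edgeR adjusted p of 0.623. The other 11 were Pdia4, Bag3, Creld2, Calr, Xbp1, Hspa12b, Manf, Hsp90ab1, Hsph1, Hspa2 and Stip1. Levels of Sdf2l1 at 1% protein were 19.7 and 17.0 CPM on 60% fat and 13.5 and 10.4 on 20% fat, and those at 20% protein were 17.8, 19.6, 22.1 and 19.8 CPM in the same order. On 60% fat the values for Sdf2l1 at 1% and 20% protein overlapped, and on 20% fat they did not. No chaperone gene had an adjusted p under 0.05 in this test without any single library. The 14 became 2 without replicate 1 of 60/20 (1.37% of all genes), 4 and 5 without replicate 1 and replicate 2 of 60/1 (1.81% and 1.59%), 6 without replicate 1 or replicate 2 of 20/20 (2.1% and 2.26%), 8 without replicate 2 of 20/1 (1.96%) or without both cortex-marker libraries (2.16%), and 9 with DESeq2 (1.39%). Without replicate 1 of 20/1, 14 had the more positive change on 60% fat and 6 others the more negative, against 9.38% and 12.3% of all genes.

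Laid out by library, the 40 genes differed in which libraries at 1% protein were low, and the following groups were named after their values were seen. All 4 were below the 20% protein range for the 12 genes counted above, which were Hspa4, Hspa12b, Hspb1, Cryab, Hsph1, Chordc1, Hspd1, Hspa5, Hsp90b1, Canx, Pdia3 and Serpinh1. The 3 libraries of low mitochondrial share were the 3 lowest of all 16 for 8 genes (Hspa4, Hspa4l, Hsp90aa1, Dnaja1, Dnajb4, Chordc1, Hspd1 and Hsp90b1), against 7.94% of all genes. In replicate 2 of 20/1 Dnajb4 stood at 89.0 CPM and Dnaja1 at 124, against 60.8 to 63.2 and 95.3 to 102 in the other 3. Both 20/1 libraries were the 2 lowest of all 16 for 11 genes (Hspa8, Hspa12b, Hspb1, Cryab, Hsph1, Hsf1, Hspa5, Pdia3, Pdia4, Creld2 and Serpinh1), against 2.46% of all genes. Calr, which is not among the 11, stood at 434 and 372 CPM on 20/1, against 509 and 519 on 60/1 and 483 to 531 at 20% protein.

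The libraries of 20/1 held the lowest value of the 16 for 23 of the 40 genes, replicate 2 for 15 and replicate 1 for 8, against 12.1% and 7.62% of all genes. Replicate 2 is the library described above that stands apart in cortex, choroid plexus, hypothalamic and microglia markers, and the part of this in its low values was not tested. By class, the median ER gene stood at -0.19 and -0.22 in these libraries on the log2 scale relative to its 16-library mean, and the median cytosolic gene at -0.16 and -0.13. On 60/1 the ER medians were 0.05 and -0.04 and the cytosolic ones -0.05 and 0.02. On 20% fat the libraries at 2.5% protein were low as well, at -0.18 and -0.08 for the ER and -0.09 and -0.07 for the cytosol. At 20% protein the medians of both classes were 0.03 to 0.15 in all 4 libraries.

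**Figure D4:**
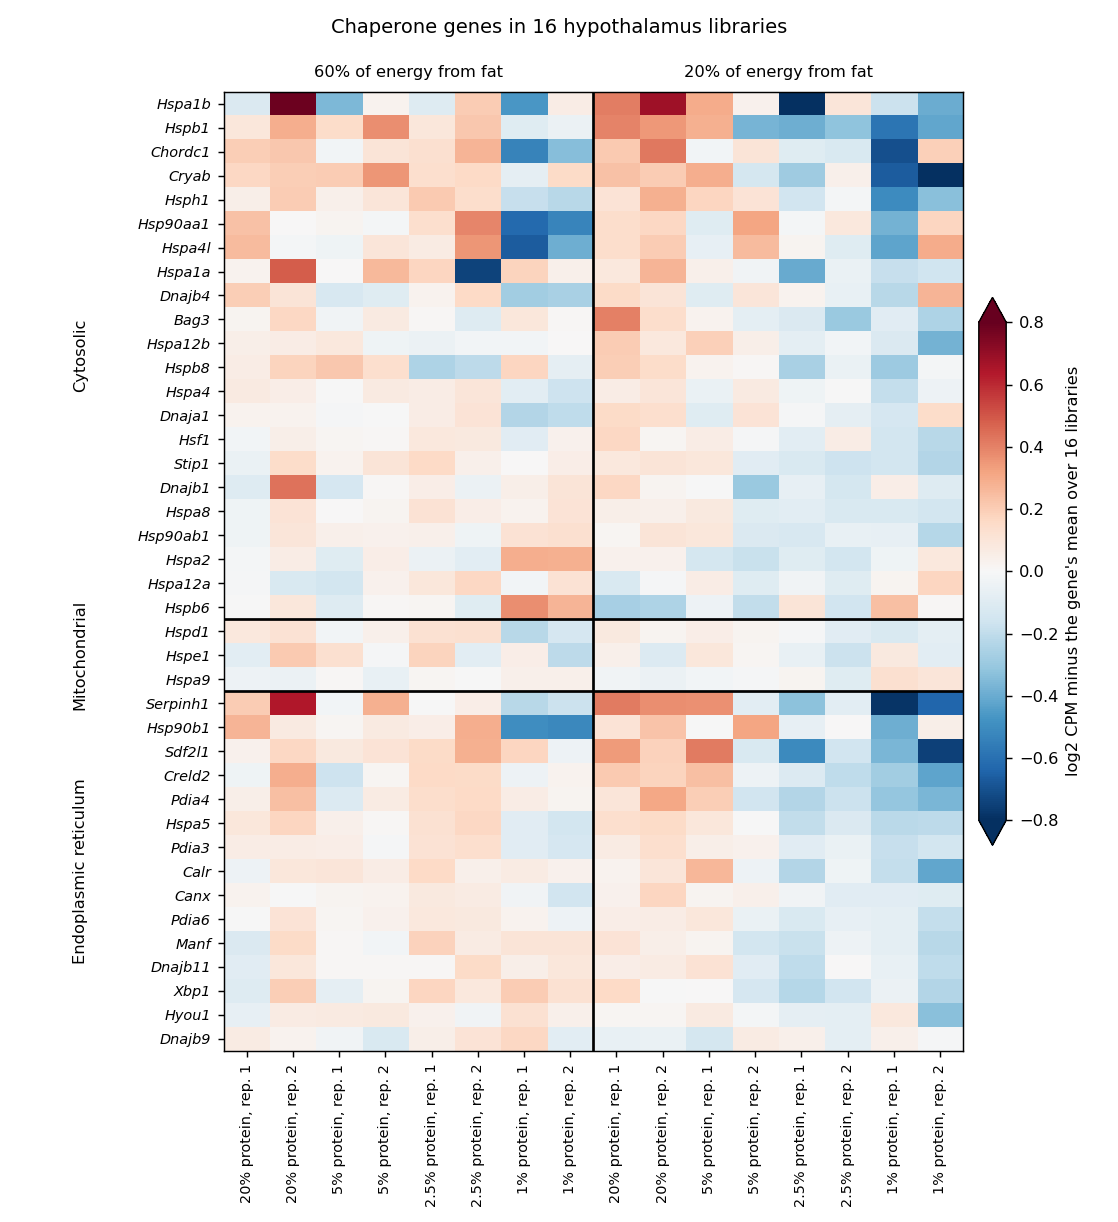
Log2 CPM of the 40 chaperone genes (rows, by compartment) minus each gene's mean over 16 libraries, with libraries as columns ordered by fat and falling protein, and colour clipped at 0.8 above and below the mean. The right-hand columns, 20/1, hold the lowest value for 23 genes.

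The 40 were set beside longer lists of the same machinery, whose counts stand beside the 6.01% of all genes that fell and the 8.26% that rose in this contrast. Of 27 other cytosolic chaperones and cochaperones tested, 2 fell between 1% and 20% protein, Ahsa2 (-0.43, edgeR adjusted p = 0.00715), a relative of the HSP90 activator AHA1, and Hsf2 (-0.23, edgeR adjusted p = 0.0465), a second heat shock factor, and none rose (median 0.0018). Of the 8 subunits of TRiC, the cytosolic folding cage, Cct2 rose (0.14, edgeR adjusted p = 0.0474) and 7 did not pass. Of 10 mitochondrial chaperones and proteases tested, 4 rose and none fell (median 0.18). Named by the smallest adjusted p, they included the protease Lonp1 (0.19, edgeR adjusted p = 0.0195), the HSPA9 exchange factor Grpel1 (0.30, edgeR adjusted p = 0.0213) and the protease Afg3l2 (0.21, edgeR adjusted p = 0.024). Stub1, Spg7 and Erlec1 were at 0 in every library and were not tested, and a count of 0 here does not show that a gene is silent.

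None of 22 further ER folding genes, such as P4hb, Ppib and Sec61b, passed in that contrast (median 0.03). Among genes of ER-associated degradation, Os9 (0.26, edgeR adjusted p = 0.0226) and Herpud1 (0.26, edgeR adjusted p = 0.0331) rose and Edem3 (-0.35, edgeR adjusted p = 0.0492) fell. Of 13 sensors and effectors of the unfolded protein response, Atf4 (0.19, edgeR adjusted p = 0.0439), the factor of the PERK arm, and Ppp1r15a (0.28, edgeR adjusted p = 0.044), which encodes the phosphatase subunit GADD34, rose, Creb3l2 (-0.22, edgeR adjusted p = 0.0491) fell, and 10 did not pass, the sensors Ern1, Eif2ak3 and Atf6 among them. Immediate early genes, which handling or stress before death can raise, gave 1 of 8 that rose, Dusp1 (0.33, edgeR adjusted p = 0.0425).

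Likeness over the 16 libraries was ranked without predicted or clone-named genes and without names that had become numbers. The tested genes whose log2 CPM was then most like that of Hsph1 were Pdia3 (Pearson r = 0.942), Wnk1 (0.924), Ugt8a (0.913), Lix1 (0.911) and Epb41l2 (0.910). For Hspa5 they were Pdia3 (0.955), Ly6g6f (0.927), Emp2 (0.911), Hsph1 (0.904) and Pomc (0.891). These are descriptions over libraries that share diets and composition. Between pairs of chaperone genes the median r was 0.66 over 105 ER pairs (-0.34 to 0.95) and 0.28 over 231 cytosolic pairs (-0.83 to 0.96). It was 0.12 over the 3 mitochondrial pairs (-0.49 to 0.31) and 0.43 over the 330 pairs of a cytosolic with an ER gene (-0.84 to 0.97). The median over pairs drawn from all genes was not computed, so these medians have no background beside them.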

How the data were processed

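RNA sequencing reads of 16 hypothalamus libraries were processed by the authors into raw read counts per gene, the deposited unit, for 47069 genes. The tools, per the submitters' processing notes, included HISAT2 2.1.0, featureCounts, Subread 5.0, SAMtools 1.2, FastQC and edgeR, and the build was GRCm38. Whether counting used strand was not given in those sources. Of the 40 genes, 19 overlap another gene, 11 of them a coding gene, and 29 have a deposited length equal to the whole gene span, so overlapping genes can share reads.

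The filter on low counts was filterByExpr of edgeR with a minimum count of 10 and left 16646 genes. Library sizes were scaled by TMM, and levels are TMM-scaled CPM (log2 with a prior count of 2). Contrasts between protein levels came from edgeR 4.0.16 (R 4.3.3, limma 3.58.1) as a quasi-likelihood F test with protein as 4 levels and fat as a term, and those within fat levels from a model of the 8 diets. P-values were Benjamini-Hochberg adjusted over all genes tested, with a threshold of 0.05. The slope model of the series' design text was fitted with protein as a number, its interaction with fat dropped where p was over 0.05. Libraries held 17731242 to 18511818 counts. On simulated counts for 1% against 20% protein over 16494 genes, 51% of 100 genes changed by 0.5 on the log2 scale and 81.8% of 99 changed by 1 were recovered, with 12 false calls of 144.

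Alternatives were median-ratio scaling, DESeq2 1.42.0, no filter, a replicate block, a length offset, leaving out libraries and, for the slope, a log2 scale of protein or a diet-code term. Leaving out the 3 libraries of low mitochondrial share was added after seeing the data. The members, lists and tests were chosen with earlier results of these data known. Values by library were to be given for genes past the threshold between 1% and 20% protein and for Hspa1a, Hspa1b, Hsf1, Hspa5, Xbp1, Hspd1, Hspe1 and Hspa9, and from other lists up to 3 genes per direction were to be named by smallest adjusted p. The values by library of Hsp90ab1, Hspa4l, Hspa2, Sdf2l1, Calr, Dnaja1 and Dnajb4 were added after they were seen. Promoter windows were from RefSeq (GRCm38.p6). Those of Hspa8, Cryab, Hsp90aa1, Hsp90ab1, Hsf1, Hspa9, Hyou1 and Manf were not used here. Some results on further genes of the lists are not reported here.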

Additional observations from a re-analysis of the deposited data

Results flagged for a closer look

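Among 80 groups of 4 libraries, 20 chaperone genes at each of 4 protein levels, 3 held a library set apart from the other 3 by Dixon's ratio, and chance sets apart about 1 in 20 groups. At 20% protein, Chordc1 stood at 77.2 CPM in replicate 2 of 20% fat, against 66.1 to 67.0 CPM in the others. Pdia3 stood at 269 CPM in the same library, against 254 to 256 CPM. At 2.5% protein, Hsf1 stood at 59.8 CPM in replicate 1 of 20% fat, against 66.1 to 67.3 CPM in the others.

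For Hsp90ab1, the constitutive cytosolic HSP90, every library of 60/1 was above both libraries of 60/20, and on 20% fat every library at 1% protein was below both at 20%. The log2 change between 1% and 20% protein was 0.09 on 60% fat and -0.21 on 20% fat. The difference of 0.29 had an unadjusted p of 0.0295 and an edgeR adjusted p of 0.623, so it did not pass.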

How the results depend on the processing

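Between 1% and 20% protein, 15 chaperone genes fell, against 14, with median-ratio scaling, DESeq2, no filter, the replicate block and the length offset alike. The shares of all genes that fell were 6.09%, 7.22%, 4%, 7.08% and 5.66% in that order, against 6.01%. Hsph1 and Serpinh1 passed in all 23 alternatives, Hspa5, Hsp90b1 and Pdia3 in 22, Cryab and Hspd1 in 21, Hspa4 and Hspb1 in 19, Chordc1 in 18, Hsp90aa1 and Hspb6 in 15, Pdia4 in 14, Hspa1b in 12 and Creld2 in 9. Only Hsp90aa1, at 0.035 without the 3 libraries of low mitochondrial share, and Hspe1, at 0.0037 without replicate 2 of 60/1 and 0.0029 without replicate 2 of 60/20, changed sign among the named genes.

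Counts moved by over 1.5 times as follows, and the cause was not tested. Without the cortex-marker libraries, 17.3% of all genes fell between 1% and 20% protein, against 6.01% with all libraries. For the other contrasts and the slope the shares of all genes are not given here, so those counts have no background beside them. With DESeq2, 2 genes rose between 1% and 20% protein, 7 fell and 2 rose between 1% and 5%, 6 fell between 1% and 2.5%, 10 fell on 60% fat and 2 fell with the slope. With no filter, none rose (0) between 1% and 5% or 2.5%, 3 fell between 1% and 2.5%, and 1 had a more positive change on 60% fat. With the length offset, 0 rose between 1% and 5% or 2.5%. Without the cortex-marker libraries, 11 cytosolic genes fell and 2 genes rose between 1% and 20%, 13 fell and 2 rose between 1% and 5%, 11 fell and 2 rose between 1% and 2.5%, 1 fell between 2.5% and 20%, 11 fell and 1 rose on 60% fat, and 1 rose on 20% fat. Without the 3 libraries of low mitochondrial share, 5 fell between 1% and 20% (3 cytosolic, 0 mitochondrial and 2 of the ER), and 0 rose there, between 1% and 5% and between 1% and 2.5%. That setting gave no value within a fat level. The slope called 14 that fell and 1 that rose on a log2 scale of protein, and 0 with the diet-code term.

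With 1 library left out at a time, the count that fell between 1% and 20% protein was 6 to 17 (1 to 10 cytosolic, 0 to 1 mitochondrial, 4 to 7 of the ER), and that which rose 0 to 1, while the change of Hspe1 was -0.12 to 0.0037. It was 1 to 13 and 0 to 2 between 1% and 5%, 0 to 10 and 0 to 2 between 1% and 2.5%, 0 to 12 and 0 to 1 on 60% fat, 3 to 11 and 0 to 0 on 20% fat, and 0 to 1 and 0 to 0 for the slope, and 0 to 0 both ways in the contrasts of 2.5% or 5% with 20% protein, of fat, and of the change between fat levels. The 1 gene for the slope came without replicate 1 of 20/5, and the 1 that rose on 60% fat without either 20/1 library. All genes that fell between 1% and 20% numbered 487 to 2804, and those that rose 439 to 2812. Numbers of all genes in the other contrasts are not given here.

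Replicate numbers did not pair the libraries: of 28 pairs of diets, 7 had same-numbered deviations correlated over 0.1 (r from -0.17 to 0.34). With the replicate number as a block, 2 rose between 1% and 5% protein, 2 fell between 1% and 2.5%, 1 rose on 60% fat, and no other count moved by over 1.5 times. Each diet has 2 libraries, which limits what the contrasts within a fat level can show.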
